A study of Rattus norvegicus with 59 samples.

Results

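Heat shock and oxidative stress genes were followed in the nuclear RNA of rat heart muscle cells under pressure overload and treadmill training. The group held 8 genes of the 22938 in the count tables. The chaperone genes were Hspb1 (ENSRNOG00000023546), Hspa8 (ENSRNOG00000034066) and Hspa5 (ENSRNOG00000018294). The genes for enzymes of the oxidative stress defence were Hmox1 (ENSRNOG00000014117), Nqo1 (ENSRNOG00000012772), Cat (ENSRNOG00000008364), Sod1 (ENSRNOG00000002115) and Sod2 (ENSRNOG00000019048). The genes were chosen by their Ensembl identifiers, with earlier results from these libraries known and with no cut-off on a measured value. Their values are therefore a description of these libraries, and no count of the 8 is independent support for a direction. The names belong to the identifiers of that choice, since the deposited files give identifiers without names.

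The rats were male Sprague Dawley, and nuclei of their left ventricles were sorted on PCM1, a centrosome-linked protein found on the nuclear surface of cardiomyocytes. In the surgery experiment, animals weighing about 170 g received a suture around the ascending aorta (banded) or a sham operation, and tissue was taken after 6 weeks. A banded heart was used only when hypertrophied without failure, so that group was selected on its outcome. In the treadmill experiment, rats of about 280 g ran intervals for 6 weeks (exercise) or were left untrained (control). The labels name no drug, transgene or allele in any group, and RNA libraries were made from at least 100000 nuclei. Count columns covered 4 libraries per group. The RNA sample labelled control 5 had no count column among the files used here and was not analysed here. Whether every replicate was its own animal is not said in the labels, so p-values reflect the spread of these samples only, part of which may be technical.

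Stress proteins of this kind act in layers. Heat shock factor 1 binds heat shock elements and switches on cytosolic chaperones, the unfolded protein response switches on chaperones of the endoplasmic reticulum, and the factor NRF2 binds antioxidant response elements in front of detoxifying enzymes. Superoxide dismutases turn superoxide into hydrogen peroxide, and catalase breaks the peroxide down. Cardiomyocytes beat without rest on mitochondrial respiration, which produces superoxide, and the small heat shock protein HSPB1 is known there for holding the sarcomere and cytoskeleton under mechanical load.

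The RefSeq table of promoters (build GRCr8) held 7 of the 8 genes, all except Hmox1. The 250 bases before the start of 3 chaperone genes are printed here because they carry the letters of stress elements and belong to the genes whose levels are compared next. Capitals mark the matches, each sequence reads 5′ to 3′ on the gene's own strand, and the third carries an endoplasmic reticulum stress element instead of a heat shock element. The windows lie at chr12:26432302-26432551 on the minus strand (Hspb1), chr8:50080264-50080513 on the plus strand (Hspa8) and chr3:38452766-38453015 on the plus strand (Hspa5), all in GRCr8.
Hspb1: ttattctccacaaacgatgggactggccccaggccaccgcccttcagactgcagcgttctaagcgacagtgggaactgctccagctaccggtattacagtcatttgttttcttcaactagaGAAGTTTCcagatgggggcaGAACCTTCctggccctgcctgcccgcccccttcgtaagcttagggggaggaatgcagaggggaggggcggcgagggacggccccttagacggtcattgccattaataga
Hspa8: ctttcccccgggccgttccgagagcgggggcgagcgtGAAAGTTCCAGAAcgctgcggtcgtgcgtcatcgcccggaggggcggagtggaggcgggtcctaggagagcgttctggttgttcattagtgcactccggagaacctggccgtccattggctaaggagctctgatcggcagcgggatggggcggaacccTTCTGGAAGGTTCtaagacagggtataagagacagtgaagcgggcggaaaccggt
Hspa5: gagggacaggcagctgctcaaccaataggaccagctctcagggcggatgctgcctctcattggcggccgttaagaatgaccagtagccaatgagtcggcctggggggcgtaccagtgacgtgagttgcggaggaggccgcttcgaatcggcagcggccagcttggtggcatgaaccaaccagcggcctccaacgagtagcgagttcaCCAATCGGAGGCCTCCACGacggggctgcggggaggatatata

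The heat shock element was searched only as pairs of inverted GAA units, GAANNTTC and TTCNNGAA, both of which read the same on either strand. Longer runs of such units were not required. The Hspb1 window held GAAGTTTC, which begins 129 bases before the start, and GAACCTTC, which begins 109 bases before it. The Hspa8 window held 2 clusters, each an overlapping match of both orders, the nearer one starting 55 bases before the gene. One order or the other occurred in 3 of the 7 windows (Hspb1, Hspa8 and Sod1) and in 13.55% of 33469 RefSeq promoter windows of the same length. The endoplasmic reticulum stress element, CCAAT and CCACG separated by 9 bases of any kind, was searched on both strands and occurred in 22 of those windows (0.06573%). Of the 7 genes it was found in Hspa5 alone, starting 43 bases before the start, where its first letters are also a CCAAT box. The antioxidant response element core TGACNNNGC occurred in 10.08% of windows and, of the 7 genes, in Sod2 alone. A match is a description of letters and not a measured binding site. Bases outside these windows were not searched, so a gene without a match may carry the element elsewhere.

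Counts are given as CPM, the share of the library total scaled to 1 M counts. CPM is not corrected for gene length, so levels are compared between libraries and never between genes. Library totals were 3.18 M to 14.1 M counts in sham, 2.58 M to 14.4 M in banded, 1.82 M to 7.80 M in control and 2.14 M to 7.60 M in exercise rats. The counts of sham replicates 2 and 3 agreed almost within sampling noise, and the pair was used as 1 sample, so that sham means rest on n = 3. Every library had a lowest stored count of 1, which cannot be told from 0 reads. Cell type markers were not checked, because names and identifiers were not paired in the sources used here. In their place, counts were summed over 1319 genes that exceed 8-fold enrichment on the PCM1-negative side of the authors' deposited table. These genes held 4.32% of counts in sham replicate 1, 4.45% in banded replicate 1 and 0.536% to 1.68% in the other 14 libraries. In such bulk libraries, fewer nuclei of a type and less RNA per nucleus cannot be told apart.

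Hspb1, the small heat shock protein that shields actin and desmin filaments, was the chaperone gene with separate sham and banded libraries. Its level was 12.6, 10.1, 6.54 and 9.13 CPM in sham replicates 1 to 4, from 32 to 178 counts. It was 25.5, 16.8, 40.4 and 62.4 CPM in banded replicates 1 to 4, from 104 to 625 counts. Every banded library lay above every sham library, and the banded libraries differed among themselves far more than the sham ones. The means were 36.3 ± 20.0 CPM in banded (SD, n = 4) and 9.73 ± 2.63 CPM in sham rats (SD, n = 3), a ratio of 3.73.

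The fitted difference in Hspb1 was 1.91 on the log2 scale (SE 0.45, 95% interval 0.88 to 2.93), the ninth lowest p of 12689 genes tested. It did not pass the threshold in edgeR's quasi-likelihood test (adjusted p = 1.00 over all genes). Of all genes tested, 1.62% had banded libraries all above the sham libraries, which is the background for that separation. The highest banded library set part of the size: without banded replicate 4 the banded mean was 27.6 ± 11.9 CPM (SD, n = 3) and the fitted difference 1.48. Without the replicates 1 of both groups, the libraries richest in PCM1-negative genes, it was 2.23 (edgeR adjusted p = 0.920). In the authors' deposited table, Hspb1 rose from 3.26 to 5.04 log2 RPM with a false discovery rate of 1.07e-11. The test behind those rates is not stated.

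Hspb1 in exercise rats overlapped the controls. It measured 6.28, 12.6, 6.93 and 9.45 CPM in control replicates 1 to 4 and 14.1, 7.49, 5.00 and 4.98 CPM in exercise replicates 1 to 4. The ranges overlapped, with the highest and the lowest values both among the exercise libraries. The difference was -0.08 on the log2 scale (95% interval -0.87 to 0.71, edgeR adjusted p = 0.987). Differences inside these bounds remained compatible with these libraries. Ordered by mean, exercise (7.90 ± 4.33 CPM, n = 4), control (8.82 ± 2.88 CPM, n = 4) and sham (9.73 ± 2.63 CPM, n = 3) overlapped with their neighbours, and the banded libraries lay above all 12 other libraries.

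**Figure D1:**
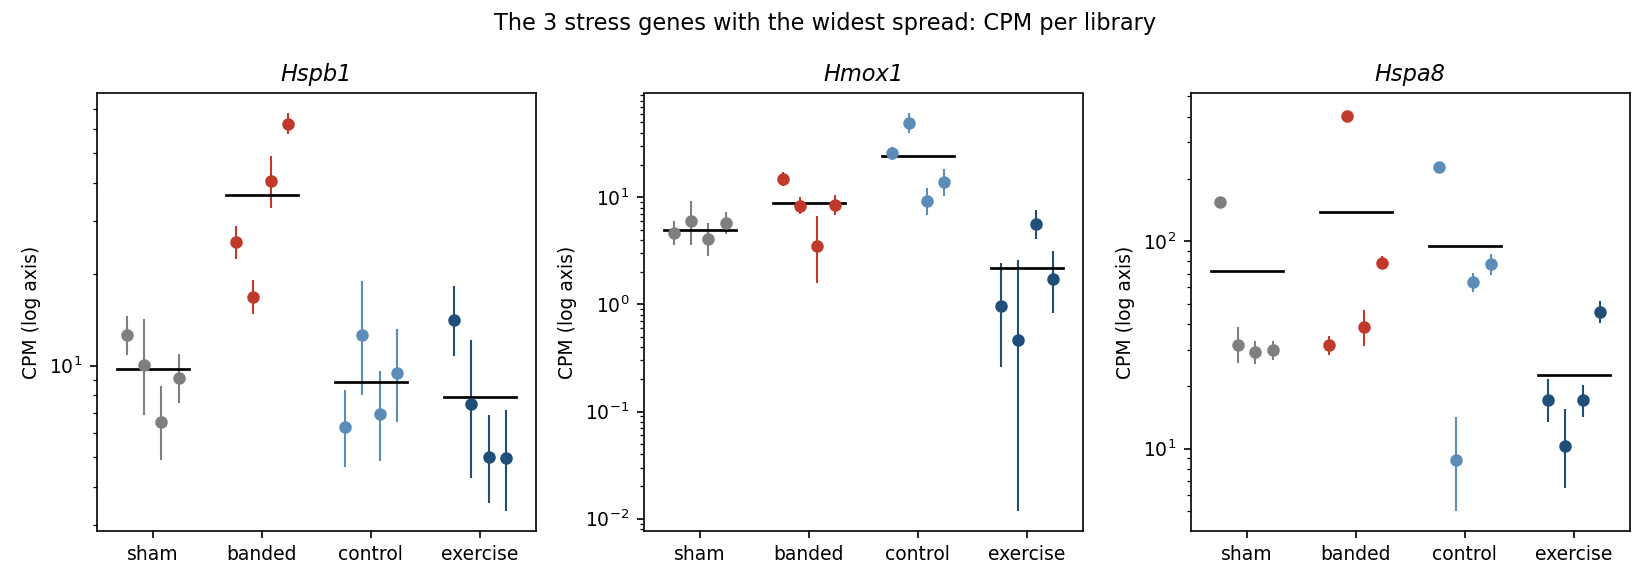
CPM per library on log axes for Hspb1, Hmox1 and Hspa8 in the 4 groups. Points are libraries in replicate order, bars are 95% Poisson intervals of the count (counting error only) and horizontal lines are group means. The 4 banded points of Hspb1, 16.8 to 62.4 CPM, lie above the sham points, and the 4 exercise points of Hmox1, 0.468 to 5.66 CPM, lie below the control points.

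Hspa8, the constitutive cytosolic HSC70 chaperone that folds new proteins and uncoats clathrin vesicles, varied more between libraries of a group than between groups. It measured 156, 31.7, 29.1 and 29.8 CPM in sham replicates 1 to 4, and 31.6, 404, 38.4 and 78.9 CPM in banded replicates 1 to 4. Banded replicate 2 stood far above the other banded libraries, and sham replicate 1 above the other sham libraries. Sham replicate 1 was also rich in PCM1-negative genes (4.32% of counts), whereas banded replicate 2 was not (0.859%). Hspa8 itself was 3.24-fold higher in PCM1-positive nuclei in the authors' deposited table (false discovery rate 0.0725), by a direction inferred below. The part of PCM1-negative nuclei in the values was not tested.

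In the treadmill experiment Hspa8 measured 229, 8.78, 63.5 and 77.5 CPM in control replicates 1 to 4 and 17.3, 10.3, 17.1 and 45.6 CPM in exercise replicates 1 to 4. The lowest of all 16 libraries was control replicate 2, so the groups overlapped although 3 of 4 control libraries lay above every exercise library. The means were 94.7 ± 94.4 CPM in control and 22.6 ± 15.7 CPM in exercise rats (SD, n = 4 each), against 71.8 ± 72.7 CPM in sham (n = 3) and 138 ± 178 CPM in banded rats (n = 4). No pair of neighbours in that order differed beyond its spread.

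These values were read from 16 to 5816 counts, so counting error was small beside the spread. The variance within groups was 743 times the counting variance for Hspa8, 51.4 times for Cat, 38.8 times for Hspb1, 16.6 times for Hmox1, 4.17 to 6.10 times for Hspa5, Sod1 and Sod2, and 1.14 times for Nqo1. This ratio grows with the number of counts, so it does not rank the genes by replicate spread. The biological coefficient of variation that edgeR fitted for Hspa8 was 0.83, higher than in 99.89% of genes, against a median of 0.220. That coefficient was 0.53 for Hmox1, 0.38 for Hspb1 and 0.21 for Cat. The reference gene table names 33 Hspa8 pseudogenes in GRCr8, and the handling of reads shared with such copies is not stated, so its level is uncertain.

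The banding difference in Hspa8 was 1.10 on the log2 scale (95% interval -1.20 to 3.41, edgeR adjusted p = 1.00) and rested on banded replicate 2: it was -0.46 without that library and 2.22 without sham replicate 1. The training difference was -2.03 (SE 0.65, 95% interval -3.45 to -0.60), which did not pass the threshold in edgeR over all genes (adjusted p = 0.534). Without control replicate 1 it was -1.12 (edgeR adjusted p = 0.780). In the authors' deposited table, Hspa8 fell from 6.14 to 4.10 log2 RPM with training, with a false discovery rate of 5.21e-08, and the banding difference of 0.93 had a rate of 0.253.

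Hspa5, the chaperone BiP of the endoplasmic reticulum and a standard target of the unfolded protein response, stayed within narrow limits. It measured 29.2, 25.8, 24.9 and 31.8 CPM in sham replicates 1 to 4, and 32.4, 30.4, 45.0 and 40.0 CPM in banded replicates 1 to 4. The groups overlapped through 1 library each, banded replicate 2 and sham replicate 4. The banding difference was 0.35 on the log2 scale (95% interval -0.12 to 0.83, edgeR adjusted p = 1.00).

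In the treadmill experiment Hspa5 measured 24.0, 19.8, 26.9 and 26.1 CPM in control replicates 1 to 4 and 20.4, 27.6, 28.0 and 20.1 CPM in exercise replicates 1 to 4. The means were nearly equal, 24.2 ± 3.22 CPM in control and 24.0 ± 4.39 CPM in exercise rats (SD, n = 4 each). The difference was -0.0031 on the log2 scale (95% interval -0.35 to 0.35, edgeR adjusted p = 0.999), and its sign turned under RLE scaling (0.00075). The 3 chaperone genes therefore gave 3 patterns over the same 16 libraries: separate groups under banding for Hspb1, wide scatter within groups for Hspa8 and values within a 2.28-fold range for Hspa5.

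Hmox1, the inducible heme oxygenase that turns heme into biliverdin, iron and carbon monoxide, was the enzyme gene with separate control and exercise libraries. It measured 25.6, 49.4, 9.24 and 13.9 CPM in control replicates 1 to 4, from 200, 90, 48 and 50 counts. In exercise replicates 1 to 4 it measured 0.959, 0.468, 5.66 and 1.72 CPM, from 4, 1, 43 and 10 counts. Every exercise library lay below every control library, and exercise replicate 2 held the lowest value that a library can store (95% Poisson interval 0.0119 to 2.61 CPM).

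The Hmox1 means were 24.5 ± 17.9 CPM in control and 2.20 ± 2.36 CPM in exercise rats (SD, n = 4 each), a ratio of 11.1. The fitted difference was -3.06 on the log2 scale (SE 0.60, 95% interval -4.37 to -1.75), the 14th lowest p of 10815 genes. It did not pass the threshold in edgeR (adjusted p = 0.161), and it passed in DESeq2, where the difference was -3.38 (adjusted p = 0.0217). Over the settings tried the adjusted p ran from 0.0217 to 0.531, and single libraries set much of the size. The difference was -4.18 without exercise replicate 3 (edgeR adjusted p = 0.259). It was -2.59 without control replicate 2, the highest control library (edgeR adjusted p = 0.319).

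Of all genes tested for training, 2.7% had exercise libraries all below the control libraries. Hmox1 had more than the filter's 10 counts in every control library and at most 10 counts in 3 of 4 exercise libraries, so it entered the test largely through the group where it was high. The shares of PCM1-negative genes were alike in both groups, 0.536% to 0.956% of counts in control and 0.611% to 0.865% in exercise libraries. In the authors' deposited table, Hmox1 fell with training from 4.30 to 0.42 log2 RPM, with a false discovery rate of 1.1e-10.

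In the surgery experiment Hmox1 measured 4.68, 5.97, 4.07 and 5.74 CPM in sham replicates 1 to 4 and 14.9, 8.34, 3.50 and 8.49 CPM in banded replicates 1 to 4. The banded libraries included both the highest and the lowest of the 8, and the highest, banded replicate 1, was also the richest in PCM1-negative genes (4.45% of counts). The difference was 0.81 on the log2 scale (95% interval -0.08 to 1.69, edgeR adjusted p = 1.00). It was 0.46 without the replicates 1 of both groups. By a direction inferred below, the authors' deposited table put Hmox1 2.41-fold higher in PCM1-positive than in PCM1-negative nuclei (false discovery rate 0.0178). The part of PCM1-negative nuclei in the banding difference was not tested.

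Ordered by mean, Hmox1 was at 2.20 CPM in exercise, 4.98 ± 0.663 CPM in sham (n = 3), 8.80 ± 4.67 CPM in banded (n = 4) and 24.5 CPM in control rats, and each neighbouring pair overlapped. The untrained controls thus held the highest mean and lay above all sham libraries, with a ratio of 4.92. Sham against control was -2.32 on the log2 scale (SE 0.61, 95% interval -3.61 to -1.03), which missed the threshold in edgeR (adjusted p = 0.0859). It passed in DESeq2 (-2.36, adjusted p = 0.00680). It also passed with the sham pair kept apart (edgeR -2.29, adjusted p = 0.0476), which counts libraries that agreed almost within sampling noise as separate samples. Surgery, starting weight and experiment all differ between these groups and cannot be told apart. Of all genes tested, 5.45% had sham libraries all below the control libraries. Those that passed edgeR's threshold made up 0.941%, against 0.00788% with banding and 0% with training.

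Nqo1, a quinone reductase and a textbook target of NRF2, was read from 9 to 95 counts per library. Its level ran from 4.11 to 5.66 CPM in sham, 3.50 to 6.60 CPM in banded, 4.49 to 7.22 CPM in control and 4.34 to 6.00 CPM in exercise libraries. All 4 ranges overlapped, and the spread within groups was close to counting error. The differences were 0.08 (95% interval -0.63 to 0.79) with banding and -0.13 (-0.64 to 0.38) with training on the log2 scale, with edgeR adjusted p of 1.00 and 0.961.

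Cat, which encodes the peroxide-splitting catalase of peroxisomes, was read from 314 to 2915 counts per library. It measured 148, 231, 238 and 162 CPM in sham replicates 1 to 4 and 177, 203, 216 and 152 CPM in banded replicates 1 to 4. The 4 banded values fell inside the sham range, and the means were 182 ± 47.9 CPM (SD, n = 3) in sham and 187 ± 28.1 CPM (SD, n = 4) in banded rats. In sham rats the 2 libraries counted as 1 were the high ones.

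In the treadmill experiment Cat measured 177, 222, 213 and 250 CPM in control and 134, 147, 207 and 227 CPM in exercise replicates 1 to 4. Exercise replicates 1 and 2 lay below every control library and the other 2 inside the control range. The difference was -0.23 on the log2 scale (95% interval -0.59 to 0.14, edgeR adjusted p = 0.824), and with banding it was 0.02 (95% interval -0.55 to 0.59, edgeR adjusted p = 1.00), a sign that turned with the sham pair kept apart (-0.08).

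Sod1, the cytosolic copper-zinc superoxide dismutase, ran from 11.02 to 18.3 CPM in sham, 13.3 to 19.8 CPM in banded, 10.4 to 16.7 CPM in control and 8.89 to 17.1 CPM in exercise libraries. Sod2, the manganese enzyme of the mitochondrial matrix, ran from 9.05 to 21.7 CPM in sham, 12.4 to 17.8 CPM in banded, 10.4 to 13.8 CPM in control and 10.1 to 13.4 CPM in exercise libraries. All groups of both genes overlapped. The banding differences were 0.12 (95% interval -0.47 to 0.71) for Sod1 and 0.05 (-0.66 to 0.77) for Sod2 on the log2 scale. The training differences were -0.14 (-0.60 to 0.33) and -0.04 (-0.41 to 0.34). The edgeR adjusted p was 0.930 to 1.00 over these 4 differences.

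**Figure D2:**
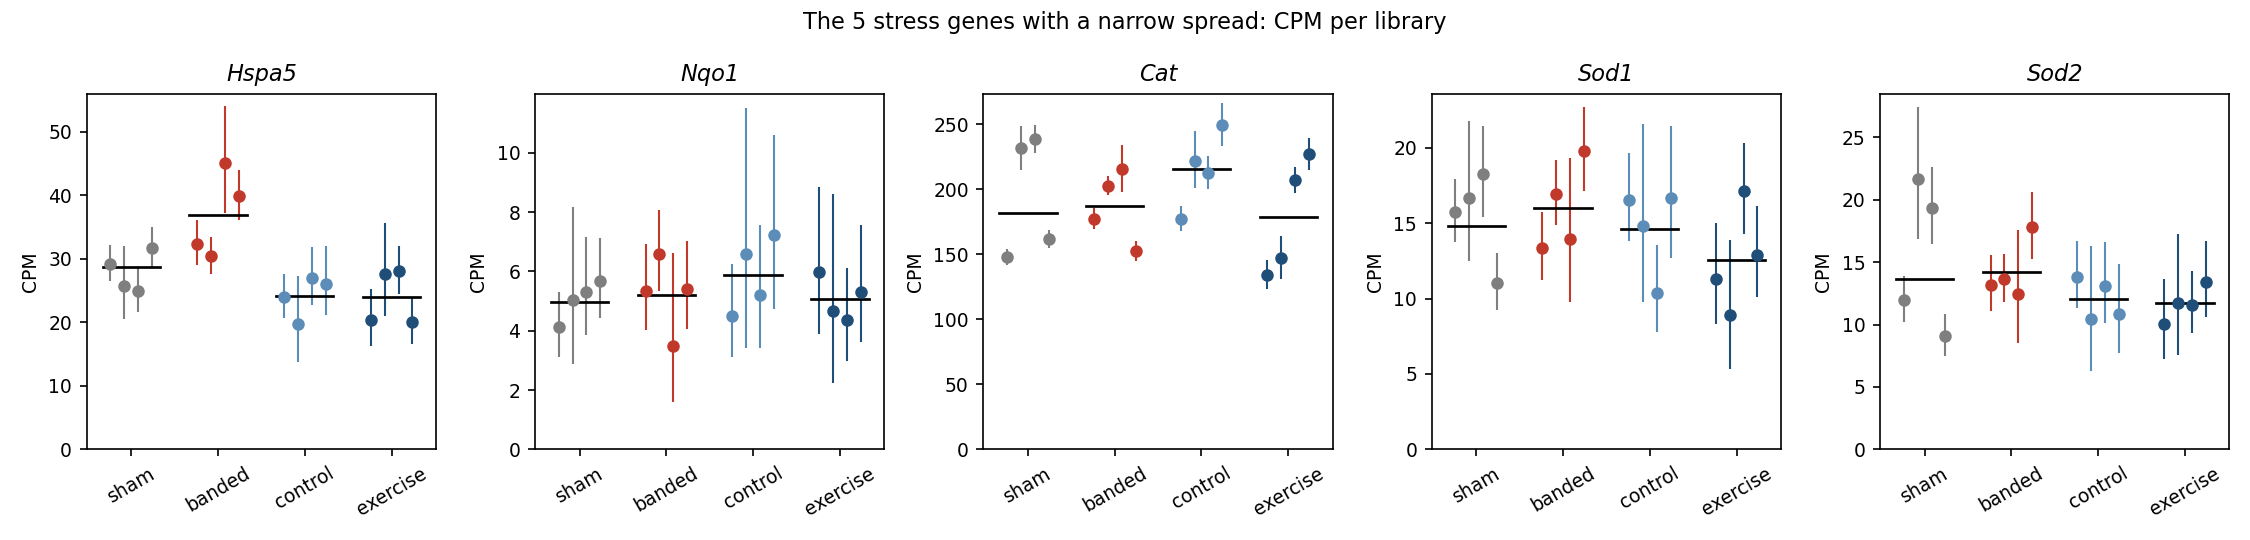
CPM per library on linear axes from 0 for Hspa5, Nqo1, Cat, Sod1 and Sod2 in the 4 groups. Points are libraries in replicate order, bars are 95% Poisson intervals of the count and horizontal lines are group means. Values of each gene stay within a 1.86-fold to 2.40-fold range over the 16 libraries, and the groups overlap.

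The 8 genes differed in how widely they ranged over the 16 libraries. The highest library was 105.5 times the lowest for Hmox1, 46.0 times for Hspa8 and 12.5 times for Hspb1, and 1.86 to 2.40 times for the other 5 genes. The highest library was a different one for each of the 3 wide-ranging genes: banded replicate 4 for Hspb1, banded replicate 2 for Hspa8 and control replicate 2 for Hmox1. Control replicate 2 was the lowest of all for Hspa8. Other libraries were high for more than 1 of these genes, such as control replicate 1 with 229 CPM of Hspa8 and 25.6 CPM of Hmox1, and banded replicate 1 with 25.5 CPM of Hspb1 and 14.9 CPM of Hmox1.

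After each group mean was taken off, log2 CPM values of the 28 gene pairs gave Pearson r from -0.51 to 0.52 over 15 samples, with a median of -0.01. In this paragraph CPM was scaled by edgeR's TMM library factors, so its values are not on the scale of the CPM used elsewhere. Hmox1 and Sod1 had the highest r (0.52), followed by Sod1 and Sod2 (0.49) and Cat and Sod2 (0.39), while Hspb1 and Cat had the lowest (-0.51). These values are a description, and the samples share libraries, depth and the fraction of other nuclei. Among 12649 other genes, the pattern closest to Hspa8 was that of ENSRNOG00000020618 (r = 0.97 over 15 samples, 13.4 to 435 CPM). The closest to Hmox1 was that of ENSRNOG00000012237 (r = 0.84, 26.9 to 63.4 CPM). Each r was picked as the highest of 12649, which by itself favours high values.

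**Figure D3:**
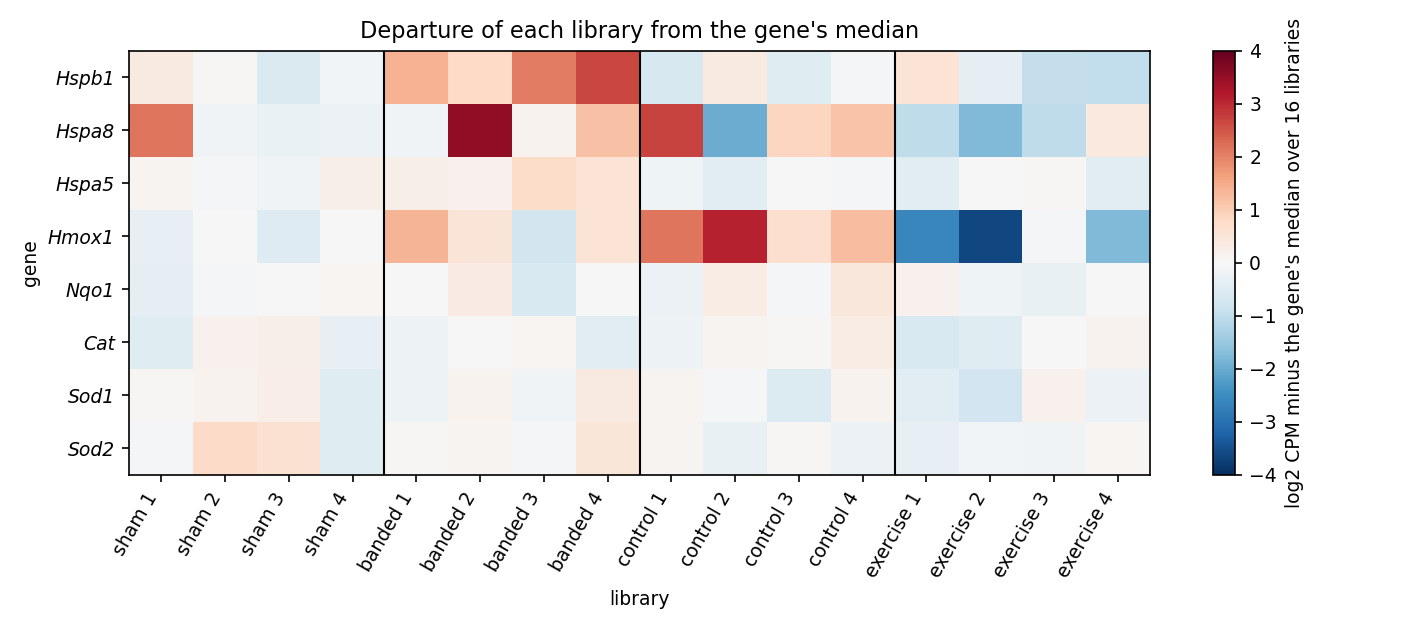
Departure of each library from the gene's median, as log2 CPM minus the median of log2 CPM over the 16 libraries, with genes in rows and libraries in columns grouped by vertical lines. Hspb1 is high across the banded columns, Hmox1 is high across the control and low in 3 of 4 exercise columns, and Hspa8 is highest in banded replicate 2, control replicate 1 and sham replicate 1, with smaller departures upward in banded replicate 4 and control replicates 3 and 4.

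Set side by side, banding and training gave different rankings of the 8 genes. With banding, 1 gene (Hspb1) had an unadjusted p under 0.05 in edgeR, against 1.84% of all genes tested, and 0 of 8 passed after adjustment, against 0.00788% (1 of 12689). DESeq2 also passed 0 of the 8, with an adjusted p of 0.0727 for Hspb1. All 8 fitted differences were above 0, with a median of 0.24 on the log2 scale, against 6144 of 12689 genes and a median of -0.01. For Nqo1, Cat, Sod1 and Sod2 the value was at most 0.12 and turned below 0 under at least 1 of the settings tried, and that of Hspa8 turned without banded replicate 2.

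With training, 2 genes (Hmox1 and Hspa8) had an unadjusted p under 0.05 in edgeR, against 7.04% of all genes tested, and 0 of 8 passed after adjustment, against 0% (0 of 10815, where 761 had an unadjusted p under 0.05). DESeq2 passed 37 genes, with Hmox1 the only 1 of the 8, and limma-voom passed 0. All 8 fitted differences were below 0, with a median of -0.13 on the log2 scale, against 5574 of 10815 genes and a median of -0.01, and those of Hspb1, Hspa5 and Sod2 turned above 0 under at least 1 setting (Hspa5 also under RLE scaling).

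In the authors' deposited tables, 1 of the 8 genes had a false discovery rate under 0.05 with banding (Hspb1, higher), against 2.63% of 22938 genes in either direction and 1.46% higher. With training, 2 had such a rate (Hmox1 and Hspa8, both lower), against 1.27% in either direction and 0.632% lower. The remaining rates for the 8 genes were 0.253 or above with banding and 0.564 or above with training. These tables were made from the same groups, so they are no independent measurement.

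**Figure D4:**
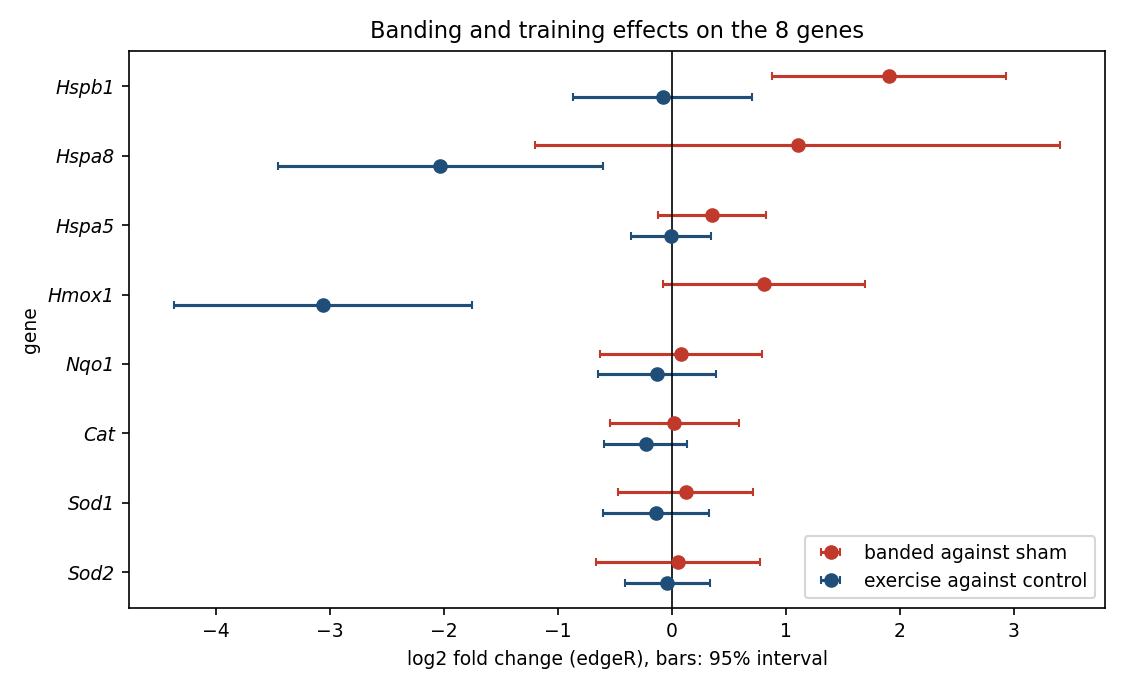
Fitted log2 differences of the 8 genes, banded against sham and exercise against control, with 95% intervals from edgeR. The interval of Hspb1 lies above 0 with banding (0.88 to 2.93), and those of Hmox1 (-4.37 to -1.75) and Hspa8 (-3.45 to -0.60) lie below 0 with training. No difference passed the threshold over all genes.

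The difference between the banding and the training effect was fitted in 1 model of all 4 groups, which uses the same libraries as both comparisons. It was 4.00 on the log2 scale for Hmox1 (SE 0.85, 95% interval 2.20 to 5.80), the fourth lowest p of 12650 genes (edgeR adjusted p = 0.798). DESeq2 gave 4.11 with an adjusted p of 0.00474, and the adjusted p ran up to 1.00 over the other settings. For Hspb1 it was 1.97 (95% interval 0.70 to 3.25) and for Hspa8 3.11 (0.24 to 5.97), both with an edgeR adjusted p of 1.00. The Hspa8 value was 1.57 without banded replicate 2, and the Hmox1 value 5.10 without exercise replicate 3.

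Those 3 genes had an unadjusted p under 0.05 for this difference, against 3.86% of all genes tested, and 0 of 8 passed after adjustment, against 0.00791%. The other 5 genes had values between 0.08 and 0.33, with intervals that spanned 0. For sham against control, 1 gene of the 8 (Hmox1) had an unadjusted p under 0.05, against 16.9% of all genes tested. Hspb1 (0.13, 95% interval -0.80 to 1.05) and Hspa8 (-0.57, -2.59 to 1.45) did not pass edgeR's threshold there, and the Hspa8 value was 0.32 without control replicate 1.

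The 8 genes were also compared between PCM1-positive and PCM1-negative nuclei. Which libraries entered that table is not stated, and its PCM1-positive side may share control libraries with the comparisons of groups. In the authors' deposited table, 4 of the 8 genes were higher in PCM1-positive than in PCM1-negative nuclei with a false discovery rate under 0.05, against 24% of all 12848 genes. Cat was 4.56-fold higher (rate 4.66e-10), Sod2 3.08-fold (5.15e-06), Hmox1 2.41-fold (0.0178) and Sod1 1.96-fold (0.00888). Both superoxide dismutases and catalase were thus among them, enzymes that act in sequence on superoxide and peroxide.

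Hspa8 was 3.24-fold higher in PCM1-positive nuclei in the same authors' deposited table, with a rate of 0.0725. Hspb1 (1.50-fold, rate 0.152), Nqo1 (1.26-fold, 0.557) and Hspa5 (0.883-fold, 0.635) did not pass that threshold. The median log2 difference, PCM1-negative over PCM1-positive, was -1.12 over the 8 genes and 0.04 over all genes, with 7 of 8 and 6205 of 12848 below 0. The table gives no values per library and so no replicate error. Its name puts PCM1-positive nuclei first without stating the direction of its folds, which was inferred here from the control libraries. Genes with a rate under 0.05 were compared by log2 control CPM minus the average log2 CPM deposited with each fold. The median was 0.16 for folds below 0 and -1.75 for folds above 0. All directions between the fractions rest on that inference.

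**Figure D5:**
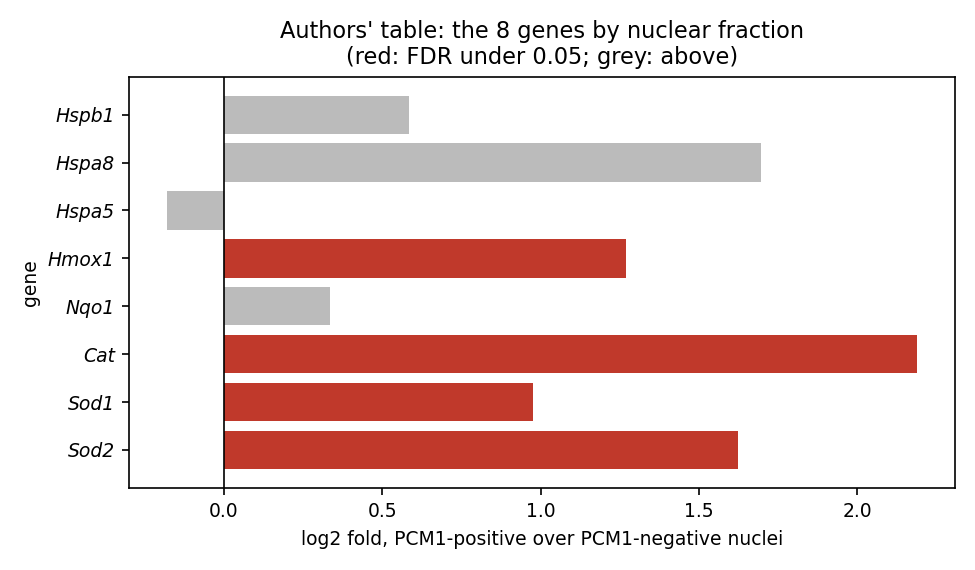
Log2 fold of the 8 genes in PCM1-positive over PCM1-negative nuclei, from the authors' deposited table, as bars from 0. Red bars have a false discovery rate under 0.05 (Cat, Sod2, Hmox1 and Sod1) and grey bars a higher one, and Hspa5 alone lies below 0.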

How the data were processed

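Nuclear RNA of PCM1-sorted nuclei was counted in 16 libraries, 4 per group. The authors deposited whole-number read counts for each gene, log2 RPM values with 1 column per group and a false discovery rate (an adjusted p-value), and a table of log2 fold changes with such rates that compares both PCM1 fractions. That table's sign was inferred here as PCM1-negative over PCM1-positive from the control libraries, although its name puts PCM1-positive first. Bowtie, SAMtools, edgeR and R 2.15.1 appear without roles in the submitters' processing notes. The counting rule, strand and build were not given in the sources used here. Overlapping or antisense genes therefore cannot be told apart. Libraries were amplified by 18 PCR cycles without molecular identifiers, per the labels' protocols, so Poisson intervals cover counting error only.

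CPM was computed from library totals without 2 rows that repeat the column totals (difference 0%). Counts were tested with edgeR 4.0.16 in R 4.3.3 (quasi-likelihood F test, TMM, filterByExpr at 10 counts and a total of 15, Benjamini-Hochberg over all genes, threshold 0.05). All 8 genes passed that filter. Surgery and treadmill libraries were fitted apart, and sham against control and the difference of both effects in 1 fit. DESeq2 1.42.0 and limma 3.58.1 (voom) were alternatives. The procedure was run on simulated counts with 200 changed genes and a dispersion shared by all genes. Dispersions of single genes, such as that of Hspa8, were not simulated, so power for them was not tested. Figures were drawn with matplotlib 3.10.9.

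The 8 genes, the gene lists, the tests and most alternatives were chosen with earlier results of these data known. All 8 were named. Likeness was named by the highest r. Sham replicates 2 and 3 were added, less 1 count, as 1 sample: their squared difference averaged 1.27 times its counting variance, against 6.05 to 84.8 in 23 other pairs. Lists of other pathway genes and of cell type markers, written as names, were not tested, because 0 of 47357 genes in the reference table carried an Ensembl ID. The chromatin files were not used here.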

Additional observations from a re-analysis of the deposited data

Results flagged for a closer look

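Hspa8 in banded replicate 2 measured 404 CPM, and its gap to the nearest other banded library was 0.873 of the range of the group, above Dixon's critical value for 4 samples. It was the only flag among 24 groups tested (8 genes in banded, control and exercise rats, not in sham). Chance alone flags about 1 group in 20. The fitted banding difference of Hspa8 was 1.10 on the log2 scale with this library and -0.46 without it. Its share of counts from PCM1-negative genes was 0.859%, inside the range of the other libraries, and the cause of the high value was not tested.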

How the results depend on the processing

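Depth limited Hmox1 (1 to 43 counts in exercise libraries) and Nqo1 (9 to 95 counts) most. The 95% intervals of the 5 narrow genes give the differences that remained compatible with these libraries. Hspb1 with banding stayed between 1.48 and 2.23 (adjusted p 0.0727 to 1.00), Hmox1 with training between -4.18 and -2.59 (0.0217 to 0.531) and Hspa8 with training between -2.63 and -1.12 (0.319 to 1.00) over all settings tried.

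With banding, DESeq2 called 2 genes and limma-voom 0 in place of 1, and 0 were called without sham replicates 2 and 3 (a setting chosen after seeing the data). Cat turned to -0.067 without the low-count filter and to -0.079 with the sham pair kept apart, and Sod2 to -0.014 and -0.12. Without sham replicates 2 and 3, Cat was 0.30, Sod1 0.32 and Sod2 0.49. Leaving out any 1 library, or the replicates 1 of both groups, gave 0 to 1 genes, Hspa8 -0.46 to 2.58, Nqo1 -0.10 to 0.22, Cat -0.17 to 0.10, Sod1 -0.028 to 0.26 and Sod2 -0.16 to 0.15. With training, DESeq2 called 37 genes, 1 of them among the 8 (Hmox1). Hspa5 turned to 0.00075 under RLE scaling, 0.0075 without the filter and 0.010 with all 4 groups in 1 fit. Leaving out any 1 library gave 0 to 1 genes, Hspb1 -0.55 to 0.13, Hspa5 -0.10 to 0.082 and Sod2 -0.11 to 0.039.

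For the difference of both effects, DESeq2 called 4 genes, 1 of them among the 8 (Hmox1), and 0 were called by limma-voom, with 1 subtracted from every count or without sham replicates 2 and 3. Sod2 turned to -0.091 with the sham pair kept apart. Sod2 was 0.52 without sham replicates 2 and 3. Leaving out any 1 library, or sham and banded replicates 1, gave 0 to 1 genes and Sod2 -0.14 to 0.18. For sham against control, 119 genes passed, against 483 in DESeq2 (1 of the 8), 192 with the sham pair kept apart (1 of the 8), 613 without sham replicates 2 and 3 and 62 with only these groups fitted. Sod2 turned to -0.055 in limma-voom and -0.36 without sham replicates 2 and 3, and Sod1 to 0.079 without the filter and 0.015 with the pair apart. Sod1 was -0.27 without sham replicates 2 and 3. Leaving out any 1 library, or sham and banded replicates 1, gave 30 to 201 genes, Hspb1 -0.046 to 0.30, Hspa8 -1.74 to 0.32 and Sod1 -0.19 to 0.11. The causes were not tested.

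Replicate numbers are shared between groups, and the labels tie them to no animal or batch. Same-numbered libraries correlated at 0.76, 0.49, 0.14 and 0.09 in sham and banded (4 of 8 libraries best with their own number), so that 3 of 4 pairs were over 0.1. They correlated at -0.04 to 0.14 in control and exercise (1 of 4 pairs over 0.1, 2 of 8 libraries best with their own number). A pairing was not adopted because not every pair was over 0.1. It is not excluded for surgery, where both replicates 1 were rich in PCM1-negative genes. With a replicate block and the sham pair kept apart, banding gave Hspb1 1.80 (adjusted p 0.371), Cat -0.055 and Sod2 -0.030 with 1 gene called. With a replicate block, training gave Hmox1 -2.87 (adjusted p 0.261) with 0 genes called. The block left 0 genes called for the difference of both effects. For sham against control it gave 1679 genes, Hspb1 -0.26 and Sod2 -0.15. That fit compared only the replicate 1 levels of both experiments and not the group averages. Those values are therefore no estimate of the difference between the baselines.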
